A study of Mus musculus with 42 samples.

Results

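RNA counts of the livers of K14-Rac1V12 mice fed a diet rich in eicosapentaenoic acid (EPA) were compared with those of livers of the same line fed a diet rich in docosahexaenoic acid (DHA). These 10 livers, 5 on each diet, are the livers labelled with either diet among the 42 libraries of ear skin, aorta and liver. In this transgenic line the keratin 14 promoter of basal keratinocytes drives constitutively active Rac1, a small GTPase, and the skin develops psoriasis-like inflammation. Hepatocytes are not known to use that promoter, so the livers are taken as those of mice with inflamed skin rather than livers that carry the driven change. All mice, controls included, had the transgene and first spent 2 weeks on a diet deficient in omega-3 (OD). At 14 weeks of age they were randomised to the EPA diet, the DHA diet or continued OD for 12 weeks. Both fatty acids were given at 3 g per kg of diet, set to match 4 g per day in a person. In the labels the dose of the DHA diet is worded as EPA, which is taken here to mean DHA. The 4 OD livers took part in the fit only to estimate the spread between livers, and their values are given for orientation. The livers of a diet are taken as separate mice, since the labels give 5 mice to a diet and each library a number of its own.

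EPA and DHA are the main long-chain omega-3 fatty acids of fish oil, and DHA is the longer molecule, with 1 more double bond. In liver, such fatty acids bind the nuclear receptor PPAR alpha, which switches on genes of fatty acid oxidation. They also restrain the maturation of SREBP-1, the factor that drives fatty acid synthesis. EPA is the direct substrate of cyclooxygenases and lipoxygenases that make eicosanoids, and the liver can lengthen and desaturate it towards DHA. The comparison asks whether these 2 diets, matched in stated dose, left different amounts of any transcript in liver.

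Total counts were 454677 to 497332 in EPA livers, 343824 to 492254 in DHA livers and 549635 to 768532 in OD livers. An exact two-sided permutation test of the mean total gave p = 0.222 between EPA and DHA livers, with 0.00794 as the smallest p that 5 against 5 livers allow. Mitochondrially encoded transcripts took 9.85 ± 1.41% of counts in EPA livers and 9.05 ± 1.25% in DHA livers (SD, n = 5 each; exact permutation p = 0.373). After adjustment over these measures and the number of genes detected, no adjusted p was below 0.560. Levels are in CPM, counts scaled to a common library total. Xist, the long noncoding RNA of X inactivation, stood above 200 CPM in 3 livers, and the labels give no sex. These were EPA liver 1 with 833 CPM, EPA liver 5 with 441 CPM and DHA liver 1 with 526 CPM, against at most 6.32 CPM in the other 11 livers. These 3 livers held 2, 0 and 0 counts of Y-linked genes, against 22 to 104 in the others. They also stood together at 1 end of the first principal component, which held 19.6% of the variance. Results that rest on them are therefore given with and without them. They were 2 EPA livers, 1 DHA liver and 0 OD livers, so high Xist was not balanced over the diets. The 12 hepatocyte markers, such as albumin, were detected in all 10 livers and summed to 89882 to 110489 CPM in EPA livers, against 90581 to 112460 CPM in DHA livers.

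No gene was called different between EPA and DHA livers. Of 4395 genes with enough counts, 0 (0%) passed an adjusted p under 0.05 in edgeR's quasi-likelihood test, and the smallest adjusted p was 1.00. An unadjusted p under 0.05 was reached by 157 genes, which is 3.57% of those tested, with 89 higher on EPA (2.03%) and 68 lower (1.55%). Counts of list members at that p in this fit are to be read beside these shares. Log2 differences are EPA minus DHA throughout, and 51.1% of them were above 0. Their median was 0.00, and the median size without sign was 0.15. The groups did not overlap for 31 genes (0.705%), with all EPA livers above all DHA livers for 16 (0.364%) and below for 15 (0.341%). DESeq2 called 0 genes, with 84 at an unadjusted p under 0.05, and limma with quality weights called 0, with 154. With no filter on low counts edgeR's test called 40 of 17429 genes, 14 higher and 26 lower on EPA, and 22 of the 40 were among the 4395. Of the genes described below, those 40 held Cyp7a1, Cyp8b1, G0s2, Ighg2c, Mup11, Mup20, Serpina1e, Thrsp and Tyrobp, lower on EPA, and Cyp2b13, Saa1, Saa2, Slc39a1, Steap4 and Sult3a1, higher. Xist, which the filter left out, was also among the 40, with a log2 difference of 1.22. For all 40 the values of EPA and DHA livers overlapped. In that fit every gene was given the spread of the common trend, with an SE of 0.21 for Saa1, against 1.11 with the filter, where a gene's own livers also count. None of the other alternatives run called a gene.

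A p that misses the threshold does not show that the diets act alike, so the interval of each difference is given. The 95% interval lay within a 2-fold change in both directions for 3824 genes, which is 87% of those tested. Its median half-width was 0.50 on the log2 scale, with quartiles of 0.39 and 0.61. At the median, intervals narrowed with the level of a gene up to 1000 CPM and were wider above it. The half-width was 0.58 at the median for the 2113 genes under 50 CPM and 0.32 for the 518 genes between 200 and 1000 CPM. Above 1000 CPM it was 0.39, and in this class 95 of 116 genes were held within 2-fold. That is 81.9%, against 81.4% of the genes under 50 CPM. The serum amyloid and major urinary protein genes were among those with wide intervals. Only 13 genes had a fitted difference over 1 log2 unit in size. The scatter between livers, as edgeR's common coefficient of variation, was 25.2%.

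**Figure D1:**
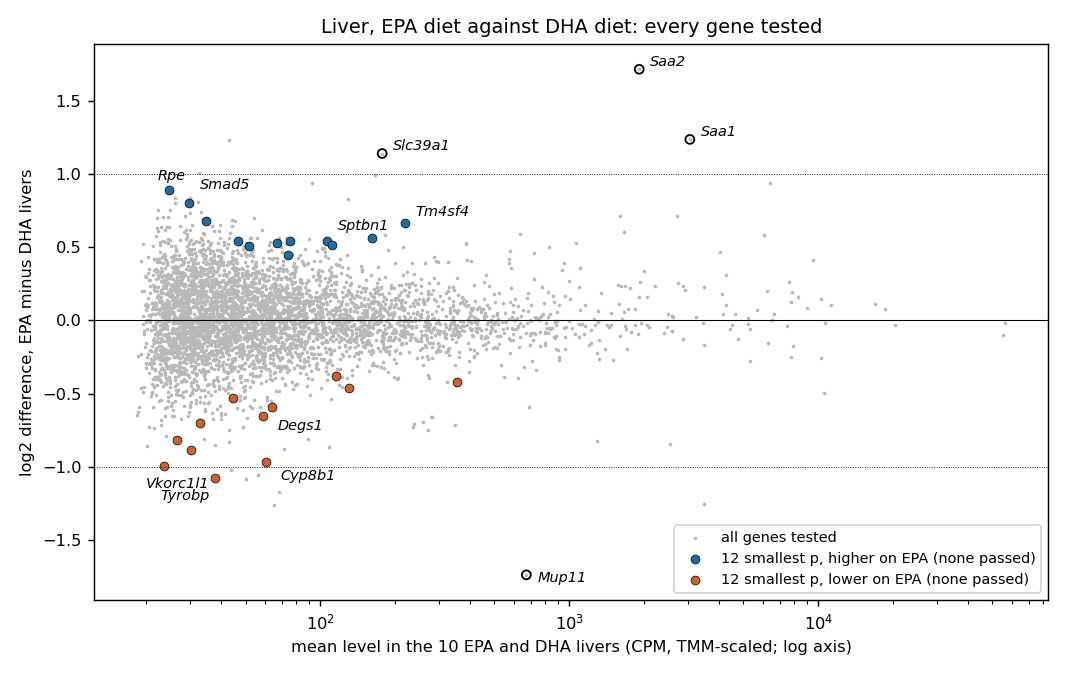
Each point is 1 of 4395 genes, with its mean level in the EPA and DHA livers on the log x axis (CPM) and its log2 difference, EPA minus DHA, on the y axis. Filled points are the genes with the smallest p in each direction, none of which passed, open circles mark genes of large difference and wide error, and dotted lines are 2-fold.

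The genes nearest to the threshold were candidates that did not pass, and each had an adjusted p of 1.00 in edgeR's test. The smallest p belonged to Sptbn1 (ENSMUSG00000020315, GRCm38 chr11:30099395-30268175, minus strand), which encodes beta-II spectrin of the membrane skeleton and is known as an adaptor in TGF beta signalling. Sptbn1 had 148, 103, 127, 137 and 117 CPM in EPA livers, against 103, 73.8, 89.7, 91.8 and 72.6 CPM in DHA livers. Its log2 difference was 0.54 ± 0.15 (SE), with OD livers at 76.2 to 93.01 CPM. The groups met at 103 CPM, so they just overlapped. Sptan1, which encodes the alpha spectrin that pairs with it, had a log2 difference of 0.68 ± 0.24.

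Degs1 (ENSMUSG00000038633, GRCm38 chr1:182275772-182282804, minus strand) was the candidate closest to the threshold among genes lower on EPA. It encodes dihydroceramide desaturase, which makes ceramide in the last step of its synthesis. Degs1 had 46.5, 51.3, 34.8, 41.0 and 52.6 CPM in EPA livers, against 64.1, 95.4, 66.1, 62.7 and 72.6 CPM in DHA livers. All EPA livers were below all DHA livers, and OD livers at 55.6 to 71.8 CPM were above the highest EPA liver too. The mean was 45.2 ± 7.41 CPM in EPA livers and 72.2 ± 13.5 CPM in DHA livers (SD, n = 5 each). The log2 difference was -0.65 ± 0.18, with a 95% interval of -1.02 to -0.28, and -0.79 ± 0.22 without the livers with high Xist. Of the 13 ceramide and sphingolipid genes tested, 1 reached an unadjusted p under 0.05, 3 were above 0, and the median was -0.12.

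Rpe, an epimerase of the pentose phosphate pathway, had 38.4, 29.0, 27.8, 27.3 and 36.4 CPM in EPA livers, against 16.5, 21.5, 9.44, 22.4 and 16.6 CPM in DHA livers. Every EPA liver was above every DHA liver, while OD livers at 16.1 to 30.7 CPM spanned both. The log2 difference of Rpe was 0.89 ± 0.26, on counts of 4 to 19 per liver. Smad5, a transcription factor that carries BMP signals to the nucleus, also had no overlap, at 27.3 to 50.5 CPM in EPA livers and 11.8 to 26.9 CPM in DHA livers. Vps4b, an ATPase that takes apart the ESCRT membrane-cutting machinery, had the opposite direction, at 42.4 to 62.7 CPM in EPA livers and 70.5 to 97.2 CPM in DHA livers. The groups of Vps4b did not overlap, and the log2 difference was -0.59 ± 0.17. Among other candidates, Pdcd4, an inhibitor of translation, had a log2 difference of 0.56 ± 0.17 and Gspt1, a translation termination factor, one of 0.54 ± 0.16. Lower values on EPA were found for Cox17, a copper chaperone of cytochrome oxidase, at -0.38 ± 0.14 and for Mrps7, a mitochondrial ribosomal protein, at -0.53 ± 0.17.

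Fatty acid oxidation is the pathway through which these fatty acids are best known to act in liver. Of 26 PPAR alpha targets tested, none reached an unadjusted p under 0.05. Intervals within 2-fold were found for 14 of them, a smaller share than the 87% of all genes. Of these targets 4 were above 0, and their median was -0.22, against 0.00 over all genes. Without DHA liver 3 the median of the targets was 0.00, with 13 above 0. Without the livers with high Xist it was -0.28, with 3 of 25 above 0, and 4 of the 25 reached an unadjusted p under 0.05. Over all 4530 genes of that fit 232 did so (5.12%), and 50% were above 0. Cpt1a, which admits fatty acids to mitochondria, had 245 to 306 CPM in EPA livers and 261 to 403 CPM in DHA livers. The log2 difference of Cpt1a was -0.22 ± 0.14, with an interval of -0.51 to 0.07 that leaves out a 2-fold change. Of 24 genes of mitochondrial fatty acid oxidation, 1 reached an unadjusted p under 0.05. This was Cpt2, the inner membrane partner of Cpt1a, with 20.1 to 72.9 CPM in EPA livers, 53.9 to 91.8 CPM in DHA livers and a log2 difference of -0.52 ± 0.25. The median of that list was -0.09, and that of 26 peroxisomal genes was -0.07. Without DHA liver 3 these medians were 0.01 and 0.00, with 13 genes of each list above 0. Without the livers with high Xist they were -0.20, with 1 of 24 above 0, and -0.13, with 6 of 25.

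The fatty acid omega-hydroxylases, also PPAR alpha targets, scattered within each diet. Cyp4a14 had 297, 29.0, 46.3, 38.7 and 323 CPM in EPA livers, against 273, 79.98, 177, 264 and 70.5 CPM in DHA livers. The EPA livers with high Xist were 1 and 5, and they alone of the EPA livers were near 300 CPM. DHA livers 1 and 4 were almost as high, and OD livers were at 4.39 to 67.1 CPM. The log2 difference was -0.23 ± 0.63 over all livers and -1.97 ± 0.62 without the livers with high Xist, where the unadjusted p was 0.00636 and the adjusted p 0.857 in the same test. With high Xist as a covariate and all livers kept it was -1.20 ± 0.53. Cyp4a10, its neighbour and close paralog, had differences of -0.34 ± 0.54 over all livers and -1.55 ± 0.61 without those 3. Cyp4a10 was also on the list of genes that are higher in female liver. Reads of Cyp4a paralogs may be split by the counting. Ehhadh, a peroxisomal enzyme, had -0.28 ± 0.35 over all livers and -0.91 ± 0.39 without them. Whether the livers with high Xist differed in these genes whatever the diet, or responded to the diets in another way, was not tested.

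Among genes of fatty acid synthesis, Srebf1 also differed more between the diets without these livers. Srebf1, which encodes SREBP-1, had 135, 31.2, 23.2, 13.7 and 62.7 CPM in EPA livers, against 72.4, 46.1, 44.8, 80.6 and 82.9 CPM in DHA livers. The OD livers were at 56.2 to 71.8 CPM. The 3 EPA livers with low Xist were below every DHA and OD liver, and the highest value of all was that of EPA liver 1, with high Xist. Over all livers the log2 difference was -0.28 ± 0.42 with an interval of -1.17 to 0.60. Without the livers with high Xist it was -1.50 ± 0.32, with an unadjusted p of 0.000363 and an adjusted p of 0.548 in edgeR's test. With high Xist as a covariate it was -0.76 ± 0.36. Once livers were left out, 3 EPA and 4 DHA livers remained. Of 21 synthesis genes tested, none reached an unadjusted p under 0.05, 7 were above 0, and the median was -0.06. With those with high Xist left out, 8 were above 0, with a median of -0.21. An unadjusted p under 0.05 was then reached by 2, against 5.12% of all genes in that fit. The median of the synthesis genes was -0.27 without EPA liver 1 and 0.09 without DHA liver 1. Fasn, fatty acid synthase, had 37.1 to 182 CPM in EPA livers and 27.7 to 108 CPM in DHA livers, and its interval of -1.03 to 1.35 was wide. Scd1, which makes oleic acid, ran from 1627 to 5392 CPM in EPA livers and from 911 to 6129 CPM in DHA livers. Thrsp, a regulator of lipogenesis, had 123 to 334 CPM in EPA livers, 215 to 676 CPM in DHA livers and 147 to 823 CPM in OD livers. Its log2 difference was -0.75 ± 0.41.

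Of 15 genes of polyunsaturated fatty acid synthesis, which include the enzymes that convert EPA towards DHA, none reached an unadjusted p under 0.05. Their median was -0.01, and -0.26 with 5 above 0 without EPA liver 1. Intervals within 2-fold were found for 13 of them, a share like that of all genes. Fads1, the delta-5 desaturase, had 330, 221, 227, 230 and 299 CPM in EPA livers, against 321, 292, 227, 195 and 419 CPM in DHA livers. Its difference was -0.15 ± 0.20, with an interval of -0.57 to 0.26. Fads2, the delta-6 desaturase, differed by -0.25 ± 0.33. Elovl2 and Elovl5, which lengthen polyunsaturated chains, differed by -0.01 ± 0.26 and 0.00 ± 0.34. For the eicosanoid and oxylipin enzymes, 17 genes were tested, none reached an unadjusted p under 0.05, and the median was -0.05. It was -0.24 without the livers with high Xist, and 2 of the 17 reached that p, against 5.12% of all genes there.

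**Figure D2:**
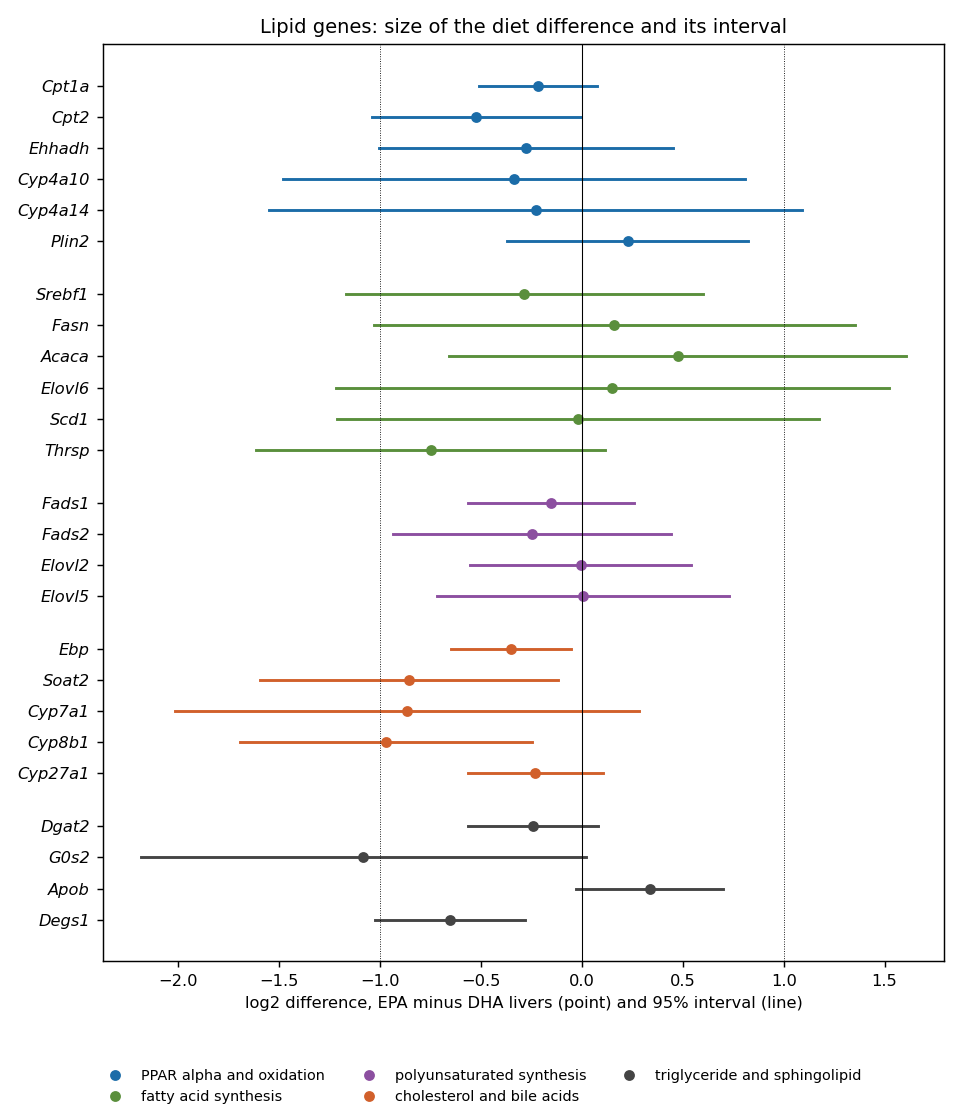
Points are log2 differences, EPA minus DHA livers, of lipid genes, and lines are their 95% intervals, with dotted lines at 2-fold. The interval of Degs1 lies below 0 from -1.02 to -0.28, that of Cpt1a stays within 2-fold, and those of Fasn, Scd1 and Cyp4a14 pass 2-fold on both sides.

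In bile acid synthesis the candidate was Cyp8b1 (ENSMUSG00000050445, GRCm38 chr9:121914356-121916305, minus strand), the sterol 12-alpha-hydroxylase that sets how much cholic acid is made. Cyp8b1 had 32.4, 44.6, 57.9, 36.5 and 34.4 CPM in EPA livers, against 62.1, 46.1, 70.8, 85.1 and 133 CPM in DHA livers. Only DHA liver 2, at 46.1 CPM, lay within the range of the EPA livers. The mean was 41.1 ± 10.5 CPM in EPA livers and 79.4 ± 32.99 CPM in DHA livers, with a log2 difference of -0.97 ± 0.34 and an interval of -1.69 to -0.25. OD livers spread from 35.0 to 128 CPM, over both diets. Without the livers with high Xist the difference was -0.88 ± 0.43. Cyp7a1, the rate-limiting enzyme of bile acid synthesis, had 15.6 to 119 CPM in EPA livers and 63.7 to 321 CPM in DHA livers, and its difference of -0.87 ± 0.54 had an interval of -2.01 to 0.28. Cyp27a1, which opens the alternative route, differed by -0.23 ± 0.16. Of 24 bile acid genes tested, Cyp8b1 was the one with an unadjusted p under 0.05, 13 were above 0, and the median was 0.03.

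Of 24 genes of cholesterol synthesis and uptake, 2 reached an unadjusted p under 0.05, both lower on EPA, against 1.55% of all genes lower at that p. The median was -0.14. It was -0.29, with 4 of 23 above 0, without the livers with high Xist. Leaving out 1 liver moved it between -0.31 without EPA liver 5 and -0.03, with 12 of 24 above 0, without DHA liver 5. Ebp, a sterol isomerase of the late pathway, had 182, 176, 134, 139 and 186 CPM in EPA livers, against 205, 200, 205, 197 and 236 CPM in DHA livers. All EPA livers were below all DHA livers, as for 0.341% of all genes, and the log2 difference was small, at -0.35 ± 0.14. Soat2, which esterifies cholesterol for lipoproteins, had 4.46 to 24.3 CPM in EPA livers, 13.4 to 33.8 CPM in DHA livers and a difference of -0.86 ± 0.35. For 14 LXR targets and efflux genes the median was -0.04.

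Lipoprotein and triglyceride genes had no candidates. Of 26 apolipoprotein and lipoprotein genes, 24 had intervals within 2-fold and the median was -0.01. Apob, the backbone of VLDL, had 1747 to 3163 CPM in EPA livers and 1452 to 2081 CPM in DHA livers, and its difference was 0.34 ± 0.17. Of 25 triglyceride and lipid droplet genes, none reached an unadjusted p under 0.05, 6 were above 0, and the median was -0.13. In the fit without the livers with high Xist 4 of them reached that p, against 5.12% of all genes, and the median was -0.20. G0s2, the inhibitor of adipose triglyceride lipase, had 48.5, 22.3, 16.2, 50.1 and 22.2 CPM in EPA livers, against 37.2, 49.2, 96.7, 148 and 10.4 CPM in DHA livers. The DHA livers held both the highest and the lowest value, so the groups overlapped, and the difference was -1.08 ± 0.52. Lpl, lipoprotein lipase, differed by 0.81 ± 0.42 over all livers and by 0.03 ± 0.48 without the livers with high Xist. In the lists of fatty acid uptake (19 genes) and phospholipid synthesis (16 genes) the medians were -0.04 and -0.05.

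Among genes of energy metabolism, all 77 nuclear genes of oxidative phosphorylation had intervals within 2-fold, 16 were above 0 and their median was -0.07. Of 13 mitochondrially encoded transcripts, 12 were above 0 and the median was 0.13, and it was 0.06, with 8 above 0, when the livers with high Xist were left out. In the citric acid cycle, Pdhb, a subunit of pyruvate dehydrogenase, had 31.9 to 71.4 CPM in EPA livers and 55.98 to 87.3 CPM in DHA livers, and its difference was -0.55 ± 0.21. Sds, serine dehydratase of gluconeogenesis, had 200, 190, 176, 399 and 119 CPM in EPA livers, against 240, 317, 349, 457 and 348 CPM in DHA livers. EPA liver 4 alone was inside the range of the DHA livers, and the difference was -0.66 ± 0.25. Pck1, the gatekeeper of gluconeogenesis, differed by -0.27 ± 0.19. Insr, the insulin receptor, had 119 to 125 CPM in EPA livers and 89.6 to 117 CPM in DHA livers, with no overlap and a difference of 0.26 ± 0.12. The medians were -0.06 for 24 citric acid cycle genes, -0.08 for 25 genes of gluconeogenesis and insulin response, and -0.08 for 35 genes of amino acid and urea metabolism. These medians were -0.17, -0.15 and -0.13 without the livers with high Xist.

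Acute phase genes, which hepatocytes make under cytokine signals, had a median of 0.25 over 34 genes, with 27 above 0 and 1 at an unadjusted p under 0.05. When the livers with high Xist were left out, EPA livers 2, 3 and 4 were the EPA livers that remained. The median was then 0.58, with 29 above 0, and 9 of the 34 reached an unadjusted p under 0.05. Over all genes of that fit 5.12% did so, and 50% were above 0. Steap4, an iron reductase induced by interleukin-6 signalling, had 105, 337, 109, 406 and 146 CPM in EPA livers, against 126, 151, 73.1, 67.2 and 137 CPM in DHA livers. EPA livers 2 and 4 stood above all other livers, the other 3 were inside the DHA range, and the difference was 0.99 ± 0.39. Saa1, a serum amyloid gene, had 99.1, 3742, 294, 17023 and 226 CPM in EPA livers, against 1899, 5128, 293, 1350 and 408 CPM in DHA livers. EPA liver 4 was the highest and EPA liver 1 the lowest of the 14 livers, and the difference of 1.24 ± 1.11 had an interval of -1.10 to 3.58. Fga and Fgb, which encode fibrinogen chains, were also highest in EPA livers 2 and 4. Fga had 3159, 5891, 3471, 7247 and 3633 CPM in EPA livers, against 2664 to 3913 CPM in DHA livers. Their differences were 0.46 ± 0.23 and 0.41 ± 0.23. Without EPA liver 4 the list median was -0.01, with 17 of the 34 genes above 0.

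EPA livers 2 and 4 were also high for genes of the unfolded protein response, by which cells adjust protein folding in the endoplasmic reticulum. Of 18 genes tested none reached an unadjusted p under 0.05, 13 were above 0 and the median was 0.26, or 0.13 without EPA liver 4. Without the livers with high Xist 6 of the 18 reached that p, against 5.12% of all genes in that fit. Of the 18, 16 were above 0 and the median was 0.36. None of these genes passed the adjusted threshold there either. Manf, a secreted stress protein of that compartment, had 72.8, 212, 132, 426 and 95.02 CPM in EPA livers, against 86.9, 114, 125, 150 and 110 CPM in DHA livers. EPA livers 2 and 4 were above all DHA livers, EPA liver 1 was below them, and OD livers had 141 to 278 CPM. Hspa5, the chaperone BiP, had a difference of 0.48 ± 0.26. Of 14 interferon response genes, 1 reached an unadjusted p under 0.05, and the list median was -0.10. For 46 genes of complement and coagulation the median was 0.01, and for 79 cytosolic ribosomal proteins it was -0.01.

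**Figure D3:**
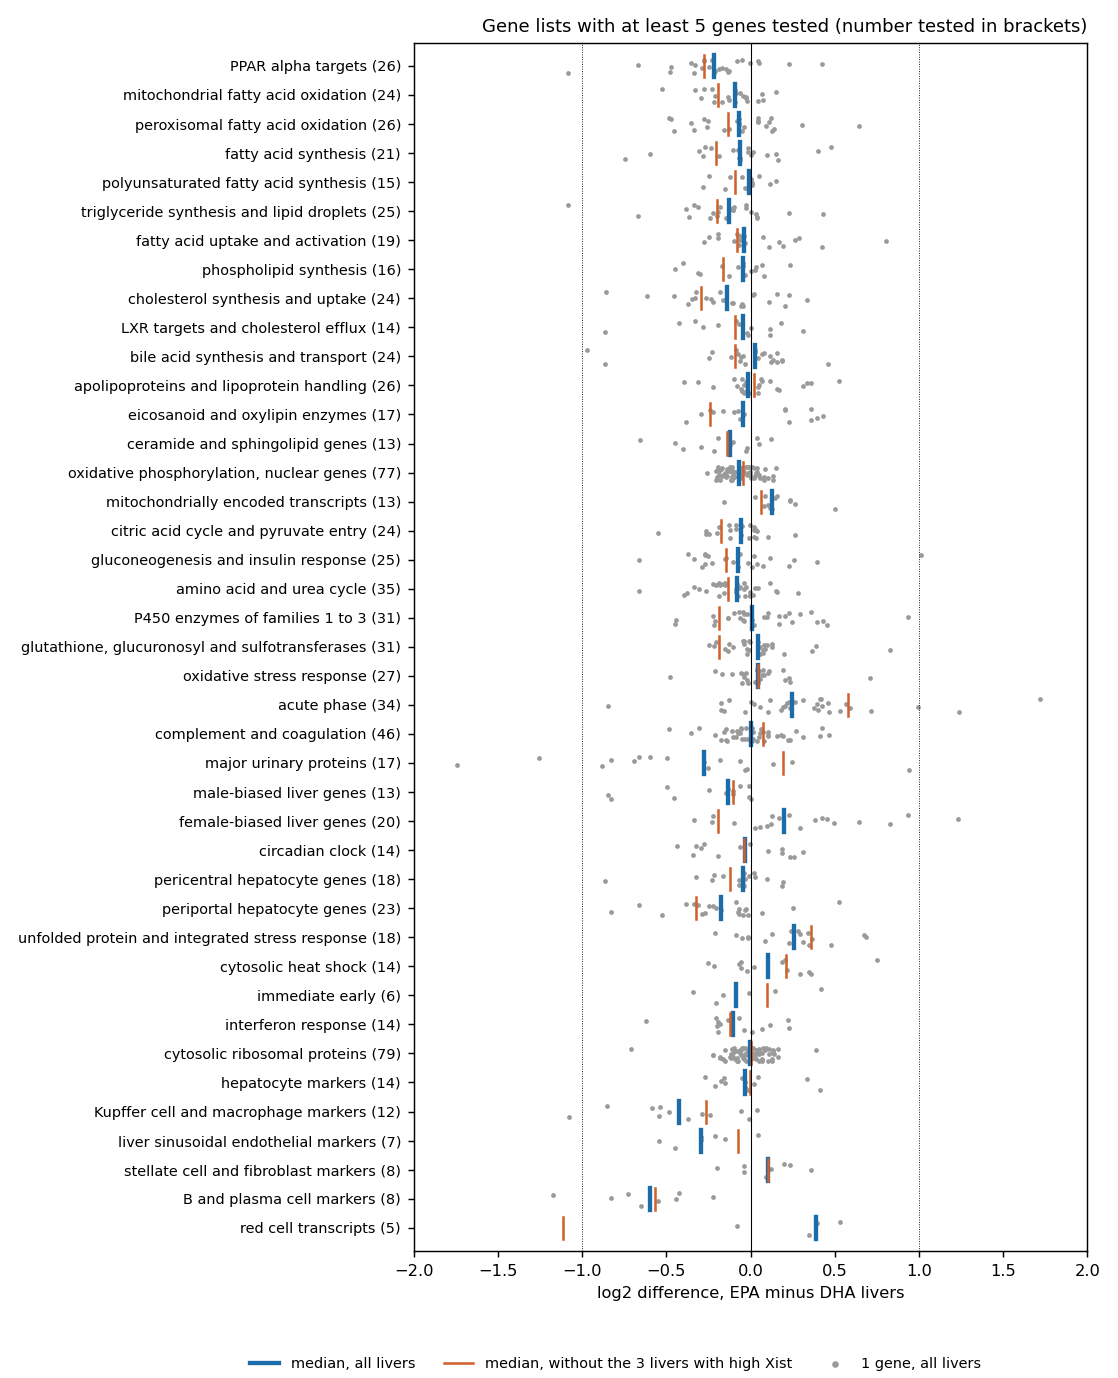
Rows are gene lists with at least 5 genes tested, grey points are log2 differences (EPA minus DHA livers) of single genes, and bars are list medians with all livers and without the 3 livers with high Xist. Most medians lie near 0, the acute phase median is 0.25 with all livers, and the red cell median is 0.39 with all livers and -1.11 without those 3. Leaving out EPA liver 5 alone gives a red cell median of -0.80, which is not drawn.

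Drug-metabolising and sex-biased genes scattered within each diet. Of 31 P450 enzymes of families 1 to 3, none reached an unadjusted p under 0.05 and the median was 0.01, or -0.19 without the livers with high Xist. The median of 31 glutathione, glucuronosyl and sulfotransferases was 0.04, or -0.19. Of 20 genes that are higher in female liver, 16 were above 0 with a median of 0.20. Without the livers with high Xist, 5 of the 16 still tested were above 0 and the median was -0.19. Of 13 genes that are higher in male liver, 1 was above 0, with a median of -0.14. Once the livers with high Xist were left out, 6 were above 0 and the median was -0.10. The median was -0.63 without EPA liver 4, and 6 were above 0 without DHA liver 4. Cyp2b13, a P450 of female liver, had 281, 29.0, 6.95, 4.56 and 287 CPM in EPA livers, against 108, 3.08, 205, 2.24 and 0 CPM in DHA livers. The livers with high Xist were high, and so was DHA liver 3, where Xist was 4.53 CPM. The difference of Cyp2b13 was 0.94 ± 0.95. The major urinary proteins, pheromone carriers made in large amounts by male liver, had no gene of 17 with an interval within 2-fold, and their median of -0.28 became 0.19 without the livers with high Xist. Mup20 had 78.9, 145, 621, 3712 and 95.02 CPM in EPA livers, against 120, 1267, 146, 6380 and 338 CPM in DHA livers. These paralogs are close to identical, so their counts may be split.

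Transcripts of Kupffer cells, endothelium and B cells were lower in some EPA livers than in most DHA livers, and those of stellate cells were not. Of 12 Kupffer cell and macrophage genes tested, 1 was above 0, against 51.1% of all genes. An unadjusted p under 0.05 was reached by 2, both lower on EPA, against 1.55% of all genes lower at that p. The median was -0.43, or -0.26 without the livers with high Xist. Tyrobp, a signalling adaptor of myeloid cells, had 4.04, 15.6, 39.4, 18.2 and 42.5 CPM in EPA livers, against 47.6, 70.8, 35.4, 38.1 and 64.3 CPM in DHA livers. EPA livers 3 and 5 were inside the DHA range, and the difference was -1.08 ± 0.40. The 4.04 CPM of EPA liver 1 was below the 6.34 CPM that 3 counts make over all counts of that liver, a slightly different scale. Vsig4, a complement receptor of Kupffer cells, had 14.2 to 48.5 CPM in EPA livers, 31.1 to 75.5 CPM in DHA livers and a difference of -0.85 ± 0.33. The sum of 11 Kupffer cell markers was 197 to 619 CPM in EPA livers, against 386 to 671 CPM in DHA livers. OD livers had 284 to 510 CPM, and EPA liver 1 was the lowest of all. Without this liver the list median was -0.22. Clec4f, which marks Kupffer cells most specifically, differed by -0.37 ± 0.25. In whole liver RNA, fewer cells of a type and less RNA per cell cannot be told apart.

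Among 7 sinusoidal endothelial genes the median was -0.30, or -0.08 with 2 above 0 without the livers with high Xist. The sum of 10 markers was 197 to 328 CPM in EPA livers, against 270 to 349 CPM in DHA livers and 187 to 263 CPM in OD livers. Of 8 stellate cell and fibroblast genes 5 were above 0, with a median of 0.10, or -0.03 with 3 above 0 without EPA liver 5. Their 10 markers summed to 335 to 433 CPM in EPA livers, against 299.6 to 372 CPM in DHA livers and 200 to 376 CPM in OD livers. All 8 B and plasma cell genes tested were below 0, with a median of -0.60. Ighg2c, an immunoglobulin heavy chain gene, had 46.5, 46.8, 27.8, 56.97 and 34.4 CPM in EPA livers, against 97.2, 12.3, 68.4, 163 and 129 CPM in DHA livers. DHA liver 2 was the lowest of all 10, the other DHA livers were above the EPA livers, and the difference was -1.17 ± 0.49. The sum of 6 markers of these cells was 156 to 411 CPM in EPA livers and 169 to 672 CPM in DHA livers. In OD livers it was 40.0 to 365 CPM. Haemoglobin transcripts were far apart within each diet, at 389 to 12274 CPM in EPA livers and 904 to 3750 CPM in DHA livers for the red cell sum. EPA liver 5 had the highest EPA sum, and without it the median of 5 red cell genes was -0.80, with 0 above 0. That median was 0.54 without EPA liver 1 and 0.26 without DHA liver 1. Among markers of tissue that could be carried over, adipocyte genes summed to at most 6.60 CPM in EPA livers and 6.80 CPM in DHA livers, and the pancreatic genes Cpa1, Prss2 and Ctrb1 were at 0 in all 10. The other pancreatic marker, Cela1, was found in all 10, at 14.1 to 39.6 CPM in EPA livers and 21.5 to 63.99 CPM in DHA livers. The 4 keratinocyte markers summed to 20.1 to 41.8 CPM in EPA livers and 25.7 to 33.6 CPM in DHA livers. Among them Krt14, whose promoter drives the transgene, had 2 to 11 counts in EPA livers and 6 to 11 in DHA livers. The part of these cells in the differences of other genes was not tested.

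**Figure D4:**
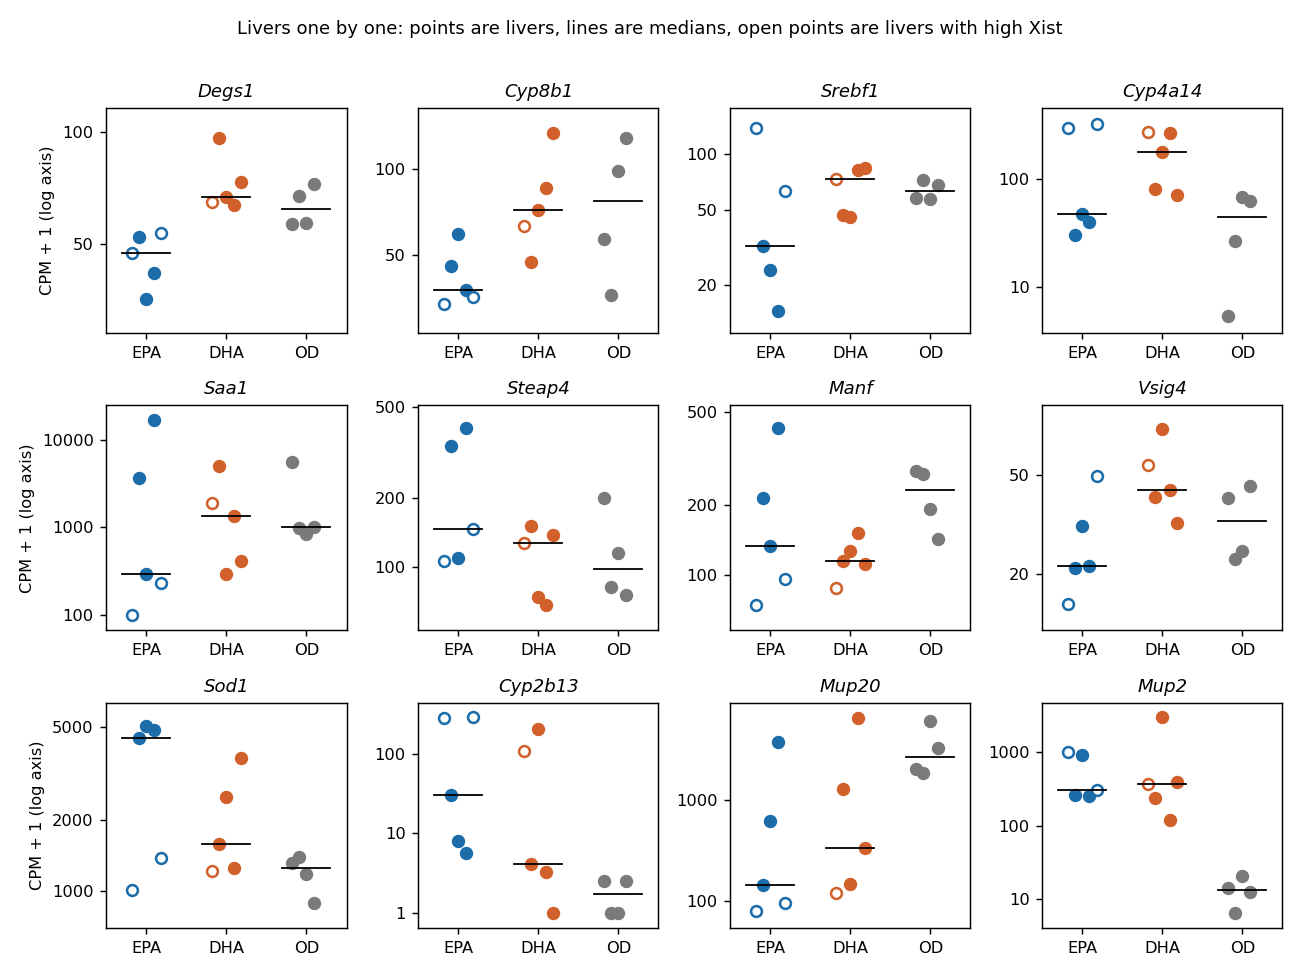
CPM + 1 of single livers on log axes for 12 genes, with EPA, DHA and OD livers from left to right, lines at the medians and open points for the 3 livers with high Xist. Degs1 is lower in every EPA liver than in every DHA liver, whereas within the EPA diet Srebf1 and Cyp4a14 are low in the 3 livers with low Xist.

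Whether the EPA minus DHA difference was another one in liver than in aorta was tested over the 28 libraries of the 2 tissues. Of 7845 genes, 0 (0%) passed the adjusted threshold in edgeR's test, and 271 (3.45%) reached an unadjusted p under 0.05. Degs1 differed by -0.04 ± 0.15 between the diets in aorta, and Sptbn1 by -0.02 ± 0.12. The test of liver against aorta gave unadjusted p of 0.00863 for Degs1 and 0.0059 for Sptbn1, and adjusted p of 1.00 for both. Both genes were picked for their small p in liver, and the same liver values enter this test, so its unadjusted p is no separate support. Smad5 had a difference of 0.59 ± 0.21 in aorta, of the same sign as in liver, and Mrps7 one of -0.64 ± 0.19. None of the candidates was thus shown to differ between the tissues in its response to diet.

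Several genes that are read for omega-3 effects had too few counts to be tested. Pdk4, a PPAR alpha target that spares glucose, had 4 counts in all EPA livers together and 9 in all DHA livers. Fgf21, a fasting hormone of the liver, had 6 and 2 in EPA and DHA livers, and Acot1, an acyl-CoA thioesterase, 29 and 58, of which DHA liver 3 held 32. A total of 3 counts in a liver, the limit that a count of 0 allows, corresponds to 6.03 to 6.60 CPM in EPA livers and 6.09 to 8.73 CPM in DHA livers. The filter on low counts left these genes out, so their differences were not tested in the main fit.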

How the data were processed

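Per the labels' protocols, 3' libraries of liver RNA were prepared with a QIAseq UPX kit, whose molecule tags mark each transcript copy, and a NextSeq500 read them. Which aligner and counter were run, and whether the tags were collapsed, is not given in the sources used here. GRCm38.p6 and edgeR are named in the submitters' processing notes. The authors deposited whole-number counts of 48709 genes in 42 libraries, which every main test used. Their normalised values, called CPM per the file headers, summed to over 1352000 per liver, so the deposited values were treated as a score and used in 1 alternative.

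The 14 livers were fitted with diet in edgeR 4.0.16 (R 4.3.3), on genes that filterByExpr kept in the 10 EPA and DHA livers (minimum count 10), using TMM factors, quasi-likelihood F tests and p-values adjusted by Benjamini-Hochberg over all 4395 genes. The 95% intervals are from the fitted difference and its SE. CPM of tested genes use these genes' counts as the total, 93.1 to 94.5% of all in EPA and DHA livers; Xist and marker sums use all counts. Coordinates are from GENCODE M21. Liver against aorta took tissues as independent: the 2 tissues of a diet may come from the same mice, but each library's number occurs once, so none could be paired. None of 26 same-diet pairs of livers looked like a duplicate (smallest chi-square over its degrees of freedom 4.59). The code was tested on simulated data. Alternatives used DESeq2 1.42.0, limma 3.58.1, other scalings and filters, and fits with livers left out.

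The genes and the 48 lists, which share members, were chosen with earlier results of these data known. Named were the 12 genes with the smallest p in each direction, 60 genes set by hand and, from each list, at most 4 members of smallest p; not all are printed, and predicted genes, Rik clones and pseudogenes were not named by this rule. Xist, Slc39a1, Clec4f, Cyp2b13, Mup2, BC048546, Mug2, Ces1b and Gm8893 were named after their values were seen. Labels give neither sex nor batch, and floors cover counting error only. Some genes of the lists are not reported here by name.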

Additional observations from a re-analysis of the deposited data

Results flagged for a closer look

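In these results 1 liver stood apart from the other 4 livers of its diet, with a gap to its nearest neighbour that was large against the range of the group (Dixon's criterion at the 95% level). Of 128 combinations of gene and diet examined, 16 did so. Chance picks about 1 in 20 among values taken without regard to it, but Gm8893, Mug2 and Mup2, with 4 of the 16, were named because livers stood apart, so the count is not read against that rate. EPA liver 4 was high for Saa1 with 17023 CPM, against 3742 CPM in the next EPA liver, and for Saa2 with 12185 CPM, against 2261 CPM. It was also high for the gluconeogenic gene Sds with 399 CPM, against 200.2 CPM, and for the urinary protein genes Mup20 with 3712 CPM and Mup11 with 1399 CPM. EPA liver 1 was high for Apob, at 3163 CPM. EPA liver 3 was low for Mug2, at 25.5 CPM, and high for Gm8893, at 1383 CPM.

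Among DHA livers, liver 1 was high for Elovl6, a fatty acid elongase, with 91.01 CPM, against 43.5 CPM in the next, for Sult3a1 with 350 CPM and for Vps4b with 97.2 CPM. DHA liver 5 was high for the cholesterol gene Ebp with 236 CPM and for Thrsp with 676 CPM. Mup20 was highest in DHA liver 4, with 6380 CPM, and Mup2 in DHA liver 3, with 3015 CPM. Gm8893 had 1769 CPM in DHA liver 2. Both Ebp and Vps4b, for which EPA and DHA livers did not overlap, were thus extreme in a DHA liver on the side away from the EPA livers. Without that liver the log2 difference was -0.31 for Ebp and -0.50 for Vps4b.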

How the results depend on the processing

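The count of 0 genes held in 24 of 25 alternatives. It was 40 of 17429 genes with no filter on low counts, with 746 at an unadjusted p under 0.05. The unadjusted count, 157 in the test reported, was 84 with DESeq2, for which the cause was not tested. It was 133 with library totals alone, 170 by limma on the deposited normalised values, 163 with high Xist as a covariate and 232 of 4530 genes without the livers with high Xist. Leaving out 1 liver at a time, OD livers included, gave counts of 0 and unadjusted counts of 134 to 204 in 14 fits. Groups did not overlap for 31 genes with DESeq2 size factors (15 above, 16 below), and for 20 with library totals alone (6 above, 14 below), where the cause was not tested. For liver against aorta the count stayed 0, with 272 unadjusted with DESeq2 size factors and 295 of 8032 without libraries with high Xist. Of 46 list medians, 10 changed sign without the livers with high Xist and 2 with library totals. Leaving out 1 liver changed the sign of 22 of 41 medians. For the 64 genes of the text, 15 of 1597 values passed, all with no filter on low counts, and 60 changed sign without passing. No paired analysis was possible because the labels give the livers no replicate numbers that are shared between diets. At 343824 to 497332 counts per liver, genes under 50 CPM had the widest intervals at the median, and 5 livers per diet left a median half-width of 0.50 on the log2 scale.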

Other observations

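The values of this section were picked after they were seen, for livers of the same diet that stood far apart, and none of the genes passed the test between EPA and DHA livers. Sod1, the cytosolic superoxide dismutase, had 1009, 4489, 5044, 4859 and 1375 CPM in EPA livers, against 1212, 1578, 2515, 1245 and 3688 CPM in DHA livers and 890.0 to 1386 CPM in OD livers. EPA livers 2, 3 and 4 and DHA liver 5 were far above the rest. The zinc transporter Slc39a1 had its highest values in the same 3 EPA livers, with 48.5, 269.8, 275.7, 521.9 and 105.1 CPM in EPA livers, against 78.6, 92.3, 151.0, 64.9 and 161.7 CPM in DHA livers. Its log2 difference was 1.14 ± 0.44, and 1.58 ± 0.29 without the livers with high Xist, where it had the smallest p of all genes and an adjusted p of 0.397 in edgeR's test. Rps25, a protein of the small ribosomal subunit, had 756 to 907 CPM in EPA livers 2 to 4 and 695 CPM in DHA liver 5, against 352 to 498 CPM in the other EPA and DHA livers.

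Mug2, a macroglobulin-like protease inhibitor of rodent plasma, had 295.3, 252.0, 25.5, 266.6 and 252.7 CPM in EPA livers, against 190.3, 12.3, 11.8, 284.4 and 269.5 CPM in DHA livers. The low livers were EPA liver 3 and DHA livers 2 and 3, and OD liver 3 was low too at 17.3 CPM, so low values occurred on every diet. BC048546, a gene on the same chromosome 6, was low in the same livers, at 4.63 CPM in EPA liver 3, at 9.23 and 2.36 CPM in DHA livers 2 and 3 and at 6.49 CPM in OD liver 3. In the remaining livers it had 53.8 to 206.3 CPM. Ces1b, a carboxylesterase, was low in EPA liver 4 at 31.9 CPM and in OD liver 1 at 40.98 CPM, against 600.1 to 1616 CPM in the other livers. The pseudogene Gm8893 had 1383 CPM in EPA liver 3, 1769 CPM in DHA liver 2 and 1688 CPM in OD liver 2, against at most 58.4 CPM in the others.

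Mup2, a major urinary protein gene, had 1003, 263, 911, 251 and 309 CPM in EPA livers and 366, 237, 3015, 119 and 396 CPM in DHA livers, against 5.52 to 19.5 CPM in OD livers. Both omega-3 diets were above every OD liver, and the log2 difference between them was -0.59 ± 0.67. Counts of these paralogs may be split, as said above. The paralog Mup11 had 1036 to 7652 CPM in OD livers, against 17.8 to 1399 CPM in EPA livers and 22.8 to 3313 CPM in DHA livers. DHA liver 3, with low Xist, had the fewest Y-linked counts of the livers with low Xist, at 22. It also had 99.1 CPM of the sulfotransferase Sult3a1 and 205.3 CPM of Cyp2b13, which were high in the livers with high Xist, and 142 CPM of the serine protease inhibitor Serpina1e. Serpina1e had 56.6, 117 and 267 CPM in EPA livers 1 and 5 and DHA liver 1, the livers with high Xist, against 1534 to 6777 CPM in the remaining EPA and DHA livers.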
